A study of Rattus norvegicus with 30 samples.

Results

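The measurement described here is how the effect of kainate on the rat hippocampal transcriptome changed between 1 and 6 h after treatment. It is the kainate minus PBS difference in log2 signal at 6 h, less the same difference at 1 h, called the change of effect below. It draws on 12 of the 30 arrays in the series, 3 arrays in each of 4 groups, taken by their titles: rats given kainate and killed at 1 h, rats given PBS and killed at 1 h, rats given kainate and killed at 6 h, and rats given PBS and killed at 6 h. No measured value chose the arrays. A probe set entered the test when its signal lay above 35 on at least 3 of the 12 arrays, which kept 5796 of 8740 probe sets and 3445 of 4737 genes.

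Total RNA from hippocampus was hybridised to Affymetrix arrays, which give 1 signal per probe set. The labels give no strain, age, sex, dose or seizure score. They number the replicates without saying that each came from a separate animal, so the spread behind each p-value is that between arrays and may be technical. Each kainate group was set against PBS arrays of its own time. The labels give no hybridisation batches, and time and array handling cannot be told apart.

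Kainate is an agonist of kainate-type and AMPA-type glutamate receptors and is used in rats to provoke seizures that engage the hippocampus. Strong neuronal firing switches on immediate early genes, whose transcription needs no new protein synthesis and which encode transcription factors, phosphatases and synaptic proteins. Later genes, among them growth factors, secreted synaptic proteins and inflammatory mediators, often depend on those first products.

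The genes were sorted by the calls at the 2 times, a call being an adjusted p under 0.05 from limma with Benjamini-Hochberg adjustment over all 5796 probe sets. Delayed genes were called at 6 h but not at 1 h, and their change was called. Growing genes were called at both times in 1 direction with a called change in that direction. Sustained genes were called at both times in 1 direction without a called change. Early genes were called at 1 h with a called change in the opposite direction. A gene is represented by its tested probe set with the highest mean log2 signal over the 12 arrays.

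Genes that were higher in kainate at 1 h stayed higher at 6 h, and most 6 h rises were not called at 1 h. All 19 genes that were higher in kainate at 1 h were also higher in kainate at 6 h. These 2 comparisons share no arrays but use the same variance estimate, pooled over the 12 arrays. The 19 genes were 0.552% of the genes tested, and the 90 genes higher at 6 h were 2.61%, so the 1 h rises made up 21.1% of the 6 h rises. Some of the 90, such as Ccl3, Fosl1 and Smad7, passed the signal filter only on the kainate 6 h arrays. They entered the test through the group where they were high, so the counts of 6 h rises are not independent of the filter. In these 19 genes the median kainate effect was 1.41 log2 at 1 h and 2.25 log2 at 6 h. The effect was larger at 6 h in 11 of them and smaller in 8. Of the 3445 genes, 15 were sustained (0.435%), 10 were delayed and higher (0.290%), 4 were growing (0.116%) and 0 were early and higher. These counts leave out probe sets without a single gene in the annotation. Of those, M60921_at was early and higher in kainate, and rc_AI230256_at was early and lower. Without PBS replicate 3 of 1 h there were 2 early genes, and without PBS replicate 2 of 1 h there was 1. Without kainate replicate 1 of 1 h only 12 genes were higher at 1 h, and all 12 were higher at 6 h.

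Kainate and PBS differed in 61 probe sets at 1 h (1.05% of those tested) and in 191 at 6 h (3.30%). The change of effect itself was called for 41 probe sets, 0.707% of those tested, and 585 had an unadjusted p under 0.05. It was positive in 38 (0.656%) and negative in 3 (0.0518%). By the probe set that represents each gene, it was positive in 14 genes (0.406%) and negative in 1 gene (0.0290%). The median change over all genes was -0.08 log2, and the median half-width of its unadjusted 95% interval was 0.70 log2. A call needed an adjusted p under 0.05 and so, for a typical gene with 3 arrays a group, a larger change than this. A further 61 genes (1.77%) were higher at 6 h only and had no called change. They include genes that passed the signal filter only on the kainate 6 h arrays, such as Ccl3. Of the 61 as a group the following holds. Their change ran from 0.15 to 2.93 log2, and its 95% interval lay above 0 in 52 of them. The count of 41 depended on single arrays. It was 14, 16 and 14 without kainate replicate 1, 2 or 3 of 6 h and 20 without PBS replicate 3 of 6 h. The median standard deviation within a group was 0.16 log2 in the kainate 6 h arrays, against 0.24 in PBS at 6 h, 0.30 in kainate at 1 h and 0.29 in PBS at 1 h. The fit pooled the variance over these groups. The counts at 1 h and 6 h, and the classes built on them, therefore do not rest on the spread of each time.

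**Figure D1:**
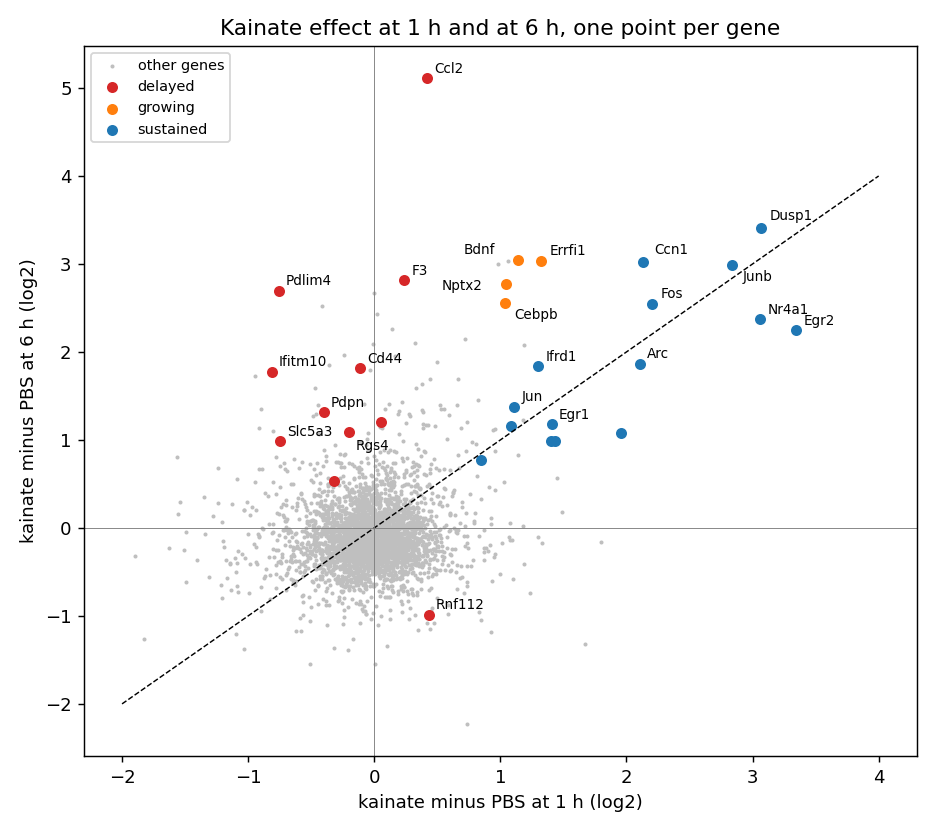
Kainate minus PBS log2 difference at 1 h (horizontal axis) and at 6 h (vertical axis), 1 point per gene, with 3445 genes. Red points are delayed, orange growing and blue sustained genes, and the dashed line marks equal effects at both times. The 19 genes called higher at 1 h lie in the upper right, Ccl2 stands highest at 5.11 log2 at 6 h, and Rnf112, the 1 delayed gene that fell, lies below 0 at 6 h.

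Promoter sequences are shown for 4 genes because they stand for the 3 positive time courses and each carries at least 1 of the 6 motifs searched. None of the 4 holds an AP-1 or NF-kB match. Each is the 250 bases before the RefSeq start in the GRCr8 build, printed 5′ to 3′ on the gene's own strand, with motif matches in capitals. Egr2 and Dusp1 were sustained, Cebpb was growing and Rgs4 was delayed. Egr2 lies at chr20:21054442-21054691 on the minus strand and Dusp1 at chr10:17184603-17184852 on the plus strand. Cebpb lies at chr3:176816755-176817004 on the plus strand and Rgs4 at chr13:84475885-84476134 on the minus strand.
Egr2: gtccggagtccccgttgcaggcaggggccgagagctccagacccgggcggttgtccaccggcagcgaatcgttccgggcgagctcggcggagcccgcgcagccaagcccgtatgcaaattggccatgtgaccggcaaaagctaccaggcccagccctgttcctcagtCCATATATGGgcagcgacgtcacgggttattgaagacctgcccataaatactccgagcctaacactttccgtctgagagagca
Dusp1: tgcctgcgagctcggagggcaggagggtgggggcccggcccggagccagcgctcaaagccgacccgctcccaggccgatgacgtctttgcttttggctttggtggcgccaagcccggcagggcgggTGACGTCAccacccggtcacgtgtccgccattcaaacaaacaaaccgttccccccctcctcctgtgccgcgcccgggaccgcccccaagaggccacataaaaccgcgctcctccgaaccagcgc
Cebpb: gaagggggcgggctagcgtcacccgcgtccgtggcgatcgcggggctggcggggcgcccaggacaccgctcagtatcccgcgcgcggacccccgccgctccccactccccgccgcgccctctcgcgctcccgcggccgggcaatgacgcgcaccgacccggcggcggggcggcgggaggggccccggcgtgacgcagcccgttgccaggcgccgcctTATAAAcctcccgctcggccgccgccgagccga
Rgs4: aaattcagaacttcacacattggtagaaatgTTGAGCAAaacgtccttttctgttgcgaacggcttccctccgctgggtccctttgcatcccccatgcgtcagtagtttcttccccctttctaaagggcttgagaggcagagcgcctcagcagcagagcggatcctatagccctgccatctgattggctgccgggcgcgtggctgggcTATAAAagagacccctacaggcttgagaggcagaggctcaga

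The capitals mark a CArG box in Egr2, the element that serum response factor binds, and a cyclic AMP response element (CRE, TGACGTCA) in Dusp1. In Cebpb they mark a TATA box (TATAAA), and in Rgs4 a C/EBP motif (TTGCNNAA) and a TATA box. The TATA box was searched on the gene's strand and the other motifs on both strands. Promoters were found for 11 of the 15 sustained, 8 of the 10 delayed and higher and 4 of the 4 growing genes. None was found for the delayed genes Ccl2 and F3 or the sustained genes Fos, Arc, Jun and Nr4a3. The motif counts below do not cover these genes. Among the 11 sustained genes the CRE occurred in 2 (Dusp1 and Ppp1r15a) and the CArG box in 2 (Egr1 and Egr2), against 1.59% and 1.5% of 33469 rat promoters of the same length. The AP-1 motif (TGANTCA) occurred in 0 of the 11 sustained, 0 of the 8 delayed and 0 of the 4 growing genes, against 6.34% of all promoters. The NF-kB motif occurred in 1 sustained gene, Nr4a1, against 6.33% of all promoters. The TATA box occurred in 3 of 11 sustained, 1 of 8 delayed and 2 of 4 growing genes, against 8.06% of all promoters. The C/EBP motif occurred in 1 of 11 sustained, 1 of 8 delayed and 0 of 4 growing genes, against 9.22%. A match is a run of letters, not a measured binding site.

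Among the delayed genes, Ccl2, the chemokine that draws in monocytes, had the largest change. Its signal was 40.2, 62.4 and 31.1 in kainate at 1 h, against 31.2, 42.0 and 24.9 in PBS at 1 h. At 6 h it was 1044, 994 and 1013 in kainate, against 29.7, 34.4 and 25.0 in PBS. The 1 h groups overlapped and the 6 h groups lay far apart. The kainate effect was 0.42 log2 at 1 h and 5.11 log2 at 6 h, which is 34.6-fold, and the change was 4.69 ± 0.38 log2 (SE, limma adjusted p = 1.25e-05). Both probe sets of Ccl2 were called, and the second gave a change of 4.92 log2.

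F3, or tissue factor, the membrane protein that starts blood clotting, had signals of 30.7, 41.7 and 48.5 in kainate at 1 h, against 30.8, 28.9 and 42.6 in PBS at 1 h. At 6 h its signals were 229.6, 187 and 193 in kainate, against 27.1, 32.0 and 27.3 in PBS. Kainate and PBS overlapped at 1 h but not at 6 h, where F3 was 7.05-fold higher in kainate. Its change was 2.58 ± 0.36 log2 (SE, limma adjusted p = 0.00252), and the calls for Ccl2 and F3 were kept in all 12 fits that left out 1 array.

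Cd44, the receptor for the matrix polymer hyaluronan, had signals of 28.8, 46.8 and 39.8 in kainate at 1 h, against 36.5, 46.4 and 40.3 in PBS at 1 h. At 6 h they were 165, 162 and 161 in kainate, against 54.5, 37.2 and 48.6 in PBS. The groups overlapped at 1 h and were 3.52-fold apart at 6 h, with a change of 1.93 ± 0.35 log2 (SE, limma adjusted p = 0.0179). Pdpn, or podoplanin, a mucin-like membrane glycoprotein, had a kainate effect of -0.40 log2 at 1 h and 1.32 log2 at 6 h. Its change of 1.72 ± 0.30 log2 passed the test (SE, limma adjusted p = 0.0165). Without a kainate 6 h array the adjusted p reached 0.0717 for Cd44, whose call was lost without replicate 1, 2 or 3, and 0.0661 for Pdpn, whose call was lost without replicate 1 or 3.

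In Slc5a3, Pdlim4 and Ifitm10 the 1 h effect was the most negative among the delayed genes, without a call at 1 h, and it entered the change. Slc5a3, the cotransporter of sodium and myo-inositol, had signals of 54.9, 66.4 and 66.4 in kainate at 1 h, against 83.7, 157 and 86.5 in PBS at 1 h. At 6 h its signals were 229, 234 and 217 in kainate, against 108, 122 and 114 in PBS. The groups did not overlap at either time, and the order of kainate and PBS was opposite at the 2 times. The change was 1.73 ± 0.32 log2 (SE, limma adjusted p = 0.0179). Its effect was -0.74 log2 at 1 h (limma adjusted p = 0.231) and 0.99 log2 at 6 h (limma adjusted p = 0.0196).

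Pdlim4, a PDZ and LIM domain protein that binds actin-associated structures, had 17.8, 13.4 and 46.9 in kainate at 1 h, against 42.4, 19.5 and 65.3 in PBS at 1 h. At 6 h it had 124, 126 and 129 in kainate, against 22.1, 14.99 and 22.1 in PBS. The 1 h values were scattered and overlapping, and the 6 h groups lay 6.48-fold apart. Ifitm10, a member of the interferon-induced transmembrane family, had an effect of -0.81 log2 at 1 h and 1.78 log2 at 6 h. Their changes were 3.45 ± 0.67 log2 for Pdlim4 (SE, limma adjusted p = 0.0239) and 2.59 ± 0.54 log2 for Ifitm10 (SE, limma adjusted p = 0.0347). The PBS arrays themselves differed between times, by -0.96 log2 for Pdlim4 and -1.09 log2 for Ifitm10 (6 h minus 1 h), neither of which passed the test. The call held in 4 of 12 fits that left out 1 array for Pdlim4 and in 3 of 12 for Ifitm10, with adjusted p up to 0.0880 and 0.144. It was kept without PBS replicate 1 of 6 h, kainate replicate 2 or 3 of 1 h or PBS replicate 2 of 1 h for Pdlim4. For Ifitm10 it was kept without PBS replicate 2 of 6 h, kainate replicate 1 of 1 h or PBS replicate 2 of 1 h.

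Rgs4 speeds the shutting off of G protein signals and is abundant in forebrain neurons. Its signal was 291, 234 and 242 in kainate at 1 h, against 279, 347 and 258 in PBS at 1 h. At 6 h its signal was 974, 801 and 885 in kainate, against 489, 337 and 432 in PBS. The 1 h groups overlapped, and at 6 h all kainate arrays lay above all PBS arrays. The change was 1.29 ± 0.24 log2 (SE, limma adjusted p = 0.0211). For Rgs4 and Slc5a3 the call was lost without kainate replicate 1, 2 or 3 or PBS replicate 3 of 6 h, with adjusted p up to 0.0777 and 0.0712. The other delayed genes were Syt4, a synaptotagmin of vesicle membranes, with a change of 1.16 log2, and Ptp4a2, a phosphatase, with a change of 0.86 log2 (limma adjusted p of 0.0347 and 0.0475). The PBS arrays of Ptp4a2 differed by -0.57 log2 between times (6 h minus 1 h), which passed the test (limma adjusted p = 0.0476). Its kainate arrays differed by 0.29 log2, which did not (limma adjusted p = 0.205), and its 1 h effect was -0.32 log2. The rule for naming genes did not take Syt4 and Ptp4a2, and they complete the count.

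**Figure D2:**
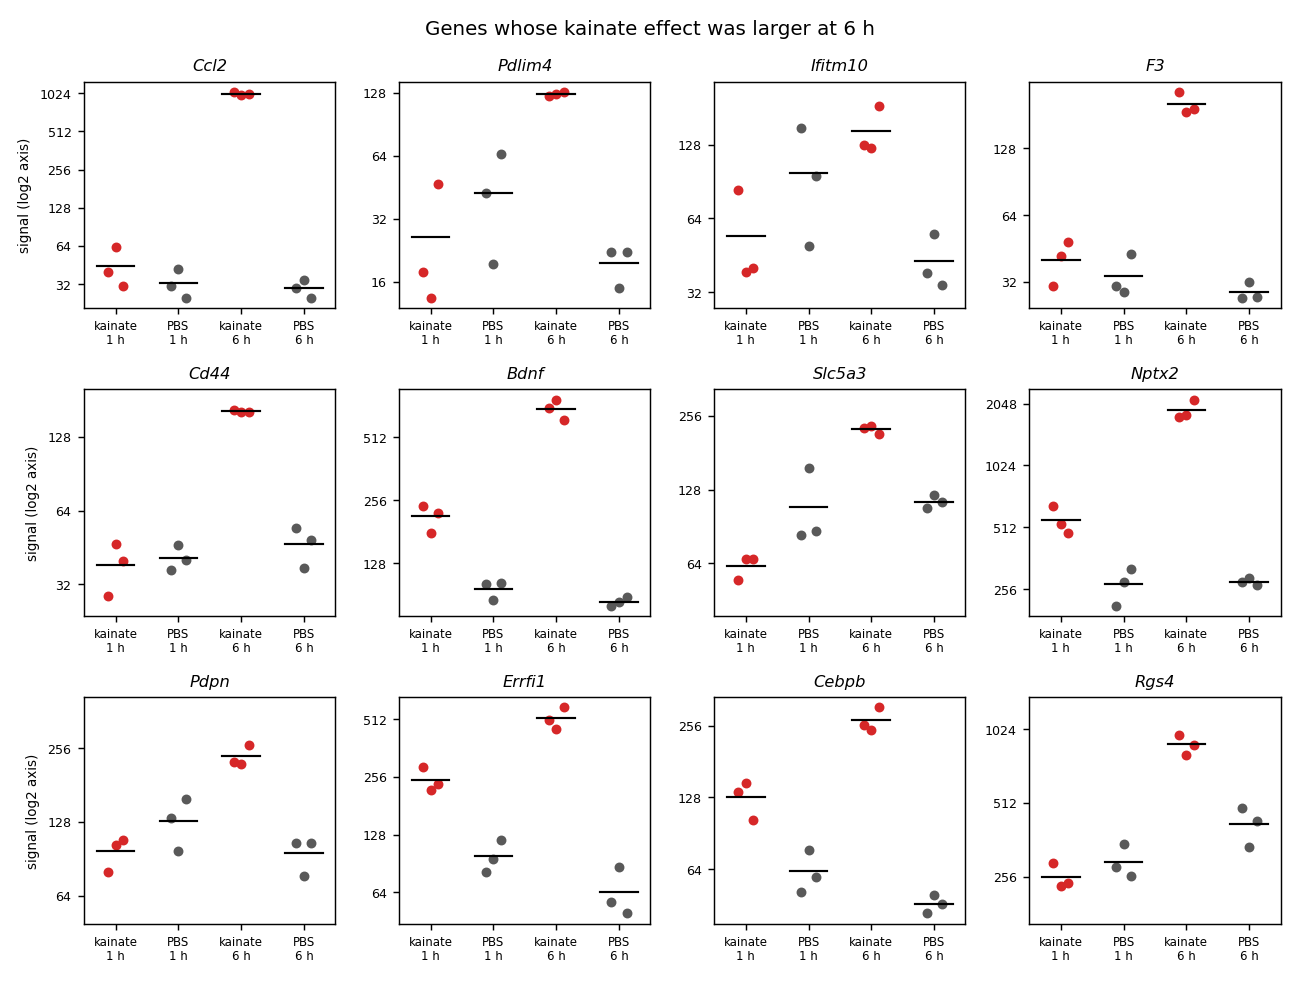
Signal on each of the 12 arrays (log2 axis) for the 12 genes with the largest called positive change, with kainate in red, PBS in grey, and a bar at the mean of 3 arrays. In every panel the kainate 6 h arrays lie above all PBS 6 h arrays. For Bdnf, Nptx2, Errfi1 and Cebpb the kainate 1 h arrays also lie above all PBS 1 h arrays.

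The 4 growing genes encode a neurotrophin, a synaptic pentraxin, a receptor inhibitor and a transcription factor. Bdnf, the brain-derived neurotrophic factor, had 241, 179 and 224 in kainate at 1 h, against 102, 85.7 and 103 in PBS at 1 h. At 6 h it had 704, 771 and 615 in kainate, against 80.3, 83.3 and 88.1 in PBS. Kainate and PBS were apart at both times, 2.21-fold at 1 h and 8.27-fold at 6 h, and the change was 1.91 ± 0.24 log2 (SE, limma adjusted p = 0.00111). The 7 tested Bdnf probe sets gave different values. The change was called in 4 of them, where it ran from 1.91 to 3.66 log2, and it was -0.74 log2 in 1 that was not called. The probe set S76758_i_at had 78.6, 58.8 and 78.6 in kainate at 1 h, against 82.9, 35.7 and 54.2 in PBS at 1 h, and 1047, 1053 and 1062 in kainate at 6 h, against 63.4, 61.5 and 66.1 in PBS at 6 h. That probe set was delayed rather than growing, with overlapping groups at 1 h.

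Nptx2, a neuronal pentraxin secreted at excitatory synapses, had 652, 533 and 481 in kainate at 1 h, against 213, 277 and 322 in PBS at 1 h. At 6 h it had 1762, 1809 and 2135 in kainate, against 278, 289 and 268 in PBS. The groups did not overlap at either time, and the PBS arrays of the 2 times were close to each other. The kainate effect was 2.07-fold at 1 h and 6.82-fold at 6 h, and the change was 1.72 ± 0.24 log2 (SE, limma adjusted p = 0.00252). The calls for Bdnf and Nptx2 held in all 12 fits that left out 1 array.

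Errfi1, a feedback inhibitor of the epidermal growth factor receptor, was 2.50-fold higher in kainate at 1 h and 8.21-fold higher at 6 h. Its change was 1.72 ± 0.31 log2 (SE, limma adjusted p = 0.0179). Cebpb, a leucine zipper transcription factor active in inflammation and metabolism, had 135, 147 and 103 in kainate at 1 h, against 51.3, 76.9 and 59.4 in PBS at 1 h. At 6 h Cebpb had 259, 246 and 305 in kainate, against 41.7, 49.7 and 45.9 in PBS. It was 2.06-fold higher in kainate at 1 h and 5.89-fold at 6 h, with a change of 1.52 ± 0.30 log2 (SE, limma adjusted p = 0.0247). The groups were apart at both times for Cebpb, and its second probe set was also called. The Cebpb call held in 6 of 12 fits that left out 1 array, with adjusted p up to 0.120, and was lost without any kainate 6 h array, PBS replicate 1 or 3 of 6 h or kainate replicate 3 of 1 h. The Errfi1 call held in 9 of 12, with adjusted p up to 0.0699, and was lost without kainate replicate 1 or 3 or PBS replicate 3 of 6 h.

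Homer1, a scaffold of postsynaptic glutamate receptors, had 6 tested probe sets, and 2 of them were called for the change. It was singled out after its values were seen. The probe set AB003726_at had 411, 697 and 385 in kainate at 1 h, against 158, 186 and 118 in PBS at 1 h, and 1299, 1352 and 1523 in kainate at 6 h, against 121, 152 and 167 in PBS at 6 h. Its change was 1.59 log2 (limma adjusted p = 0.0272), whereas the probe set representing the gene had a change of 0.43 log2 that was not called (limma adjusted p = 0.531). In all, 25 genes had a probe set called for the change, and for 10 of them it was not the probe set that represents the gene. The annotation used here does not tie probe sets to transcript isoforms.

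The sustained genes were mostly immediate early genes, and by the definition of the class none had a called change between 1 and 6 h. Of the 15, 7 had a positive and 8 a negative change, and the 95% interval lay below 0 in 2, Egr2 and Nr4a2, which is an unadjusted p under 0.05. Fos, a component of the AP-1 transcription factor, had 1483, 1115 and 1505 in kainate at 1 h, against 252, 446 and 228 in PBS at 1 h. At 6 h Fos had 1751, 1501 and 1760 in kainate, against 266, 267 and 326 in PBS. Kainate lay above PBS on every array at both times, 4.59-fold at 1 h and 5.84-fold at 6 h, and the change was 0.35 log2 with a 95% interval from -0.30 to 0.99.

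Arc, a synaptic protein whose messenger RNA travels to active dendrites, had 1983, 1913 and 1963 in kainate at 1 h, against 393, 588 and 403 in PBS at 1 h. At 6 h Arc had 1447, 1437 and 1934 in kainate, against 334, 501 and 499 in PBS. The groups were apart at both times, and the change was -0.24 log2 with a 95% interval from -0.82 to 0.33. Egr1, a zinc finger transcription factor, was 2.65-fold higher in kainate at 1 h and 2.26-fold at 6 h. Its change was -0.23 log2 with a 95% interval from -0.65 to 0.19.

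Egr2, a relative of Egr1, had 516, 427 and 415 in kainate at 1 h, against 32.1, 71.3 and 37.9 in PBS at 1 h. At 6 h Egr2 had 106, 120.2 and 173 in kainate, against 23.4, 33.3 and 26.2 in PBS. Kainate was above PBS on every array at both times, by 10.2-fold at 1 h and 4.75-fold at 6 h. The change of -1.10 ± 0.40 log2 did not pass over all probe sets (SE, limma adjusted p = 0.348). The orphan nuclear receptors Nr4a1, Nr4a2 and Nr4a3 had changes of -0.69, -0.88 and -0.41 log2, none of which was called.

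Dusp1, which removes phosphate from MAP kinases and so ends their signal, had 393, 349.8 and 333 in kainate at 1 h, against 16.7, 92.9 and 50.3 in PBS at 1 h. At 6 h Dusp1 had 306, 239.8 and 328 in kainate, against 29.1, 25.5 and 26.9 in PBS. The effect was 8.37-fold at 1 h and 10.7-fold at 6 h, with scattered PBS values at 1 h, and the change of 0.35 ± 0.59 log2 had a 95% interval from -0.90 to 1.59 (SE). Junb and Jun, AP-1 components like Fos, had changes of 0.15 and 0.26 log2, and Ifrd1, a transcriptional coregulator, had 0.54 log2. Ccn1, a matrix-associated signalling protein, had 74.5, 61.2 and 59.8 in kainate at 1 h, against 26.9, 8.26 and 4.06 in PBS at 1 h, and 68.0, 99.3 and 105 in kainate at 6 h, against 8.12, 6.42 and 5.89 in PBS at 6 h. All PBS 6 h arrays of Ccn1 lay under the floor of 10.95 set on the signal, so it was at least 8.15-fold higher in kainate at 6 h and its change has no exact size. The remaining sustained genes were Ppp1r15a, Klf4 and Rasl11b.

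**Figure D3:**
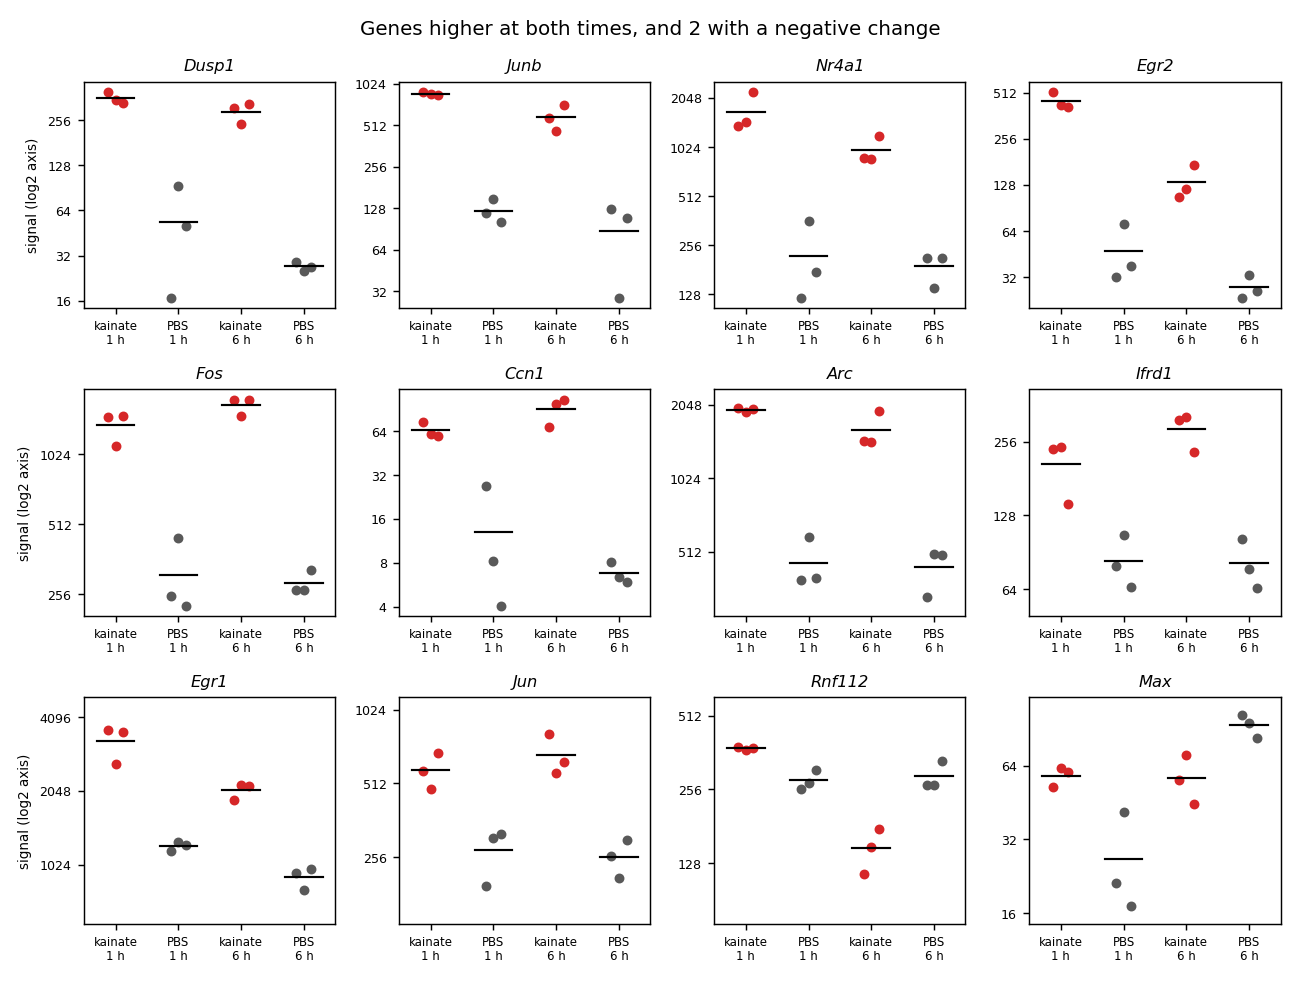
Signal on each of the 12 arrays (log2 axis) for 10 sustained genes and for Rnf112 and Max, with kainate in red, PBS in grey and a bar at the mean of 3 arrays. In the 10 sustained genes every kainate array lies above every PBS array of its time. For Rnf112 the kainate 6 h arrays lie lowest, and for Max, whose change was not called, the PBS 1 h arrays lie lowest.

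The 1 gene with a called negative change was Rnf112, which encodes a brain-enriched RING finger protein. It had 380.5, 371 and 377 in kainate at 1 h, against 258, 273 and 308 in PBS at 1 h. At 6 h it had 116, 149 and 176 in kainate, against 266, 267 and 335 in PBS. Kainate lay above PBS at 1 h and below it at 6 h with no overlap at either time. Only the 6 h fall was called, and the change was -1.42 ± 0.24 log2 (SE, limma adjusted p = 0.0142, called in all 12 fits that left out 1 array). The next 3 genes by p did not pass. Myo5b, a vesicle motor, had a change of -1.31 ± 0.29 log2 (SE, limma adjusted p = 0.0517), and Myt1l, a neuronal zinc finger factor, had -1.08 ± 0.26 log2 (SE, limma adjusted p = 0.0846). Max, the dimer partner of Myc, had -1.98 ± 0.44 log2 (SE, limma adjusted p = 0.0527). For Max the PBS arrays were 1.93 log2 higher at 6 h than at 1 h, while the kainate arrays of the 2 times differed by -0.05 log2. Without PBS replicate 2 of 1 h the changes of Myo5b, Max and Myt1l all passed, with limma adjusted p of 0.0260, 0.00606 and 0.0224.

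No gene was called lower in kainate at both times. The 4 genes called lower at 1 h (0.116%) were Ndst1, Triobp, Acadm and Exoc8, named after their values were seen. Ndst1, an enzyme that sulfates heparan chains, had an effect of -1.90 log2 at 1 h and -0.32 log2 at 6 h, and Acadm, an enzyme of fatty acid oxidation, had -1.63 and -0.22 log2. Their changes of 1.58 and 1.41 log2 were not called. Triobp and Exoc8 had -0.05 and -0.25 log2 at 6 h, so all 4 had negative 6 h values that were not called. The 14 genes called lower at 6 h (0.406%) included 0 that were called lower at 1 h.

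**Figure D4:**
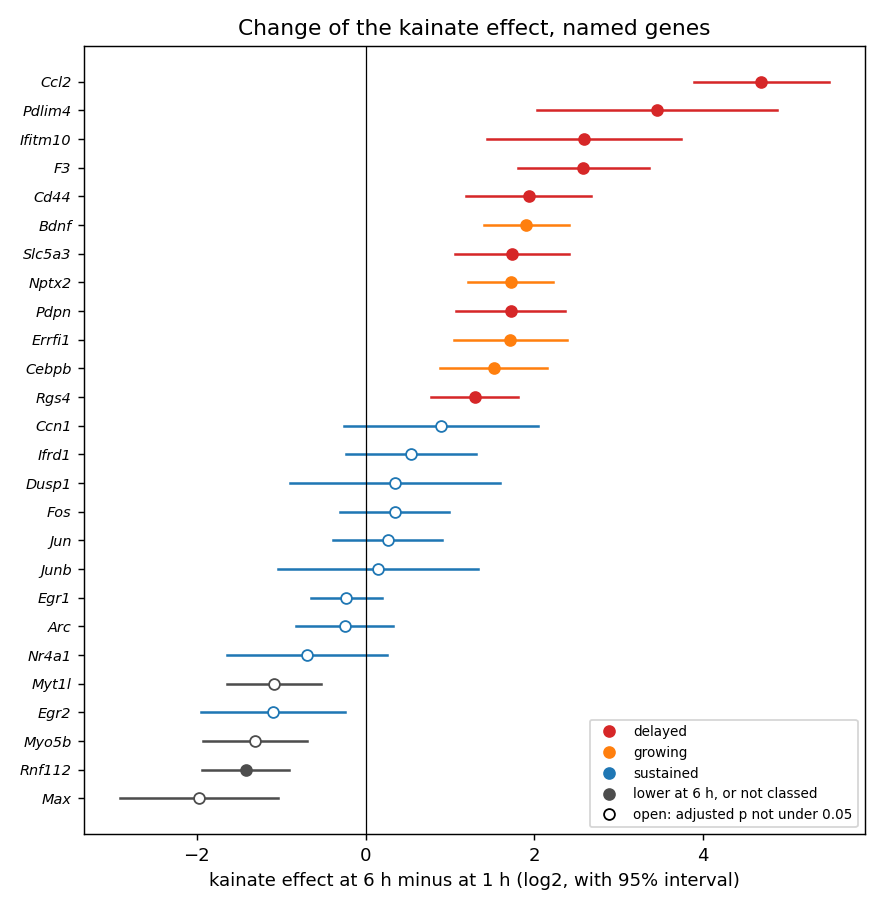
Change of the kainate effect, 6 h minus 1 h, in log2 with its 95% interval, for the 26 genes named by rule. Filled points passed the adjusted test and open points did not. The 12 upper genes lie above 0 with Ccl2 at 4.69, the sustained genes run from -1.10 for Egr2 to 0.89 for Ccn1, and Rnf112 at -1.42 is the 1 filled point below 0.

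Gene groups were described by their members' calls. The lists were chosen with earlier results of these data known, and some genes are on more than 1 list. Counts of genes higher at 6 h include members, such as Ccl3, that passed the signal filter only on the kainate 6 h arrays. Over all genes the change was called positive in 0.406%, and 0.552% were higher at 1 h and 2.61% at 6 h. Among 21 immediate early transcription factors tested, 10 were higher in kainate at 1 h and 16 at 6 h, while the change was called in 1, Cebpb. Their median change was 0.17 log2, beside -0.08 over all genes. Within the Fos family the values spread widely. Fosl2 had 107, 45.4 and 67.4 in kainate at 1 h, against 123, 85.7 and 65.5 in PBS at 1 h, and 228, 218 and 128 in kainate at 6 h, against 36.0, 52.1 and 72.1 in PBS at 6 h. Its 6 h rise was called, and its change of 2.21 log2 missed the threshold (limma adjusted p = 0.0527). Fosl1 had 67.3, 44.0 and 86.3 in kainate at 6 h and was called higher. Its signal lay under the floor on 2 kainate and 3 PBS arrays at 1 h and on 2 PBS arrays at 6 h, so its change, which was not called (limma adjusted p = 0.149), has no exact size.

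Of 19 activity-regulated effector genes, 4 had a called positive change, Bdnf, Nptx2, Rgs4 and Syt4, and the median change was 0.76 log2. In that list 4 genes were higher at 1 h and 13 at 6 h. The shares over all genes were 0.406% with a called positive change, 0.552% higher at 1 h and 2.61% at 6 h. Ptgs2, the inducible cyclooxygenase that makes prostaglandins, had 200.1, 117 and 197 in kainate at 1 h, against 78.3, 65.9 and 98.1 in PBS at 1 h. At 6 h Ptgs2 had 420.5, 509 and 627 in kainate, against 69.4, 35.05 and 100.5 in PBS. The 6 h rise was called, and the change of 1.97 log2 was not (limma adjusted p = 0.0697), though another Ptgs2 probe set was called for the change. Among 12 feedback inhibitors of kinase and cytokine signalling the change was called in 2, Errfi1 and Rgs4, with a median of 0.75 log2, and 8 were higher at 6 h, against 2 at 1 h.

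In the list of 20 cytokines, chemokines and acute inflammation genes, 0 were called higher at 1 h and 7 at 6 h, and the change was called in Ccl2 alone. The median change was 0.56 log2. Over all genes 0.552% were higher at 1 h, 2.61% were higher at 6 h and 0.406% had a called positive change. Ccl3, a chemokine made by activated microglia and macrophages, was under the floor on all kainate 1 h, PBS 1 h and PBS 6 h arrays and had 66.3, 60.1 and 85.9 in kainate at 6 h. It was at least 6.39-fold higher in kainate at 6 h, and its change was not called (limma adjusted p = 0.0697). Stat3, Icam1 and Nfkb1, a cytokine-activated transcription factor, a leukocyte adhesion protein and an NF-kB subunit, were each called at 6 h only, with changes of 1.26, 1.49 and 1.07 log2 that were not called. Of 13 reactive astrocyte genes with an annotated and tested probe set, 3 were called higher at 6 h and 0 at 1 h, and Cd44 had a called change. Gfap, the defining astrocyte filament gene, is on that list but has no probe set under its name in the annotation used here, so the counts do not cover it. Of 27 genes of extracellular matrix and proteolysis, 6 were higher at 6 h and 1 at 1 h, and Cd44 was again the 1 with a called change. Socs3, the inhibitor of cytokine receptor signalling, was 7.99-fold higher in kainate at 6 h (called) and had a change of 2.02 log2 that was not called (limma adjusted p = 0.184).

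Of 28 neuropeptides and growth factors, 8 were higher at 6 h and 1, Bdnf, at 1 h, and only Bdnf had a called change. Over all genes these shares were 2.61%, 0.552% and 0.435%. Penk, the enkephalin precursor, had 109, 113 and 139 in kainate at 1 h, against 109.5, 110.5 and 90.3 in PBS at 1 h. At 6 h Penk had 262, 229.7 and 345 in kainate, against 102, 122 and 86.2 in PBS. The 6 h rise was called, and the change of 1.21 log2 missed the threshold (limma adjusted p = 0.0731). Of 12 genes that respond to glucocorticoids, 6 were higher at 6 h and 2 at 1 h, and Errfi1 had a called change.

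The listed genes of glutamate and GABA signalling and of ion channels showed no called effect at either time. This held for all 20 glutamate receptor and transporter genes, 17 genes of GABA signalling and 33 ion channel genes tested, whose median changes were -0.07, 0.03 and -0.01 log2. The change was called in 0 genes, and none was called at 1 or 6 h, among 12 cell death regulators. Over all genes the change was called in 0.435%, and 0.552% were higher at 1 h and 2.61% at 6 h. At such shares lists of these sizes would hold few calls or none. Among 10 circadian clock genes the change was called in 0. The clock output factor Dbp was called lower at 6 h, with an effect of -1.34 log2, and its change of -1.45 log2 was not called (limma adjusted p = 0.155). In the lists of heat shock, oxidative stress and cholesterol synthesis genes 0 had a called change, while 2 of 18, 2 of 19 and 3 of 16 were higher at 6 h, beside 2.61% of all genes. At an unadjusted p under 0.05 the change was positive in 1 glutamate, 1 GABA, 3 ion channel, 1 clock, 3 heat shock, 4 oxidative stress, 2 cholesterol and 0 cell death genes. It was negative at that level in 1 ion channel, 3 clock and 1 heat shock gene. Over all genes the share was 4.79% positive and 4.88% negative at that level. The glutamate and GABA lists, with 1 of 20 and 1 of 17 positive, lay near it. Oxidative stress with 4 of 19 positive, heat shock with 3 of 18 positive and clock genes with 3 of 10 negative lay above it. These differences were not tested.

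**Figure D5:**
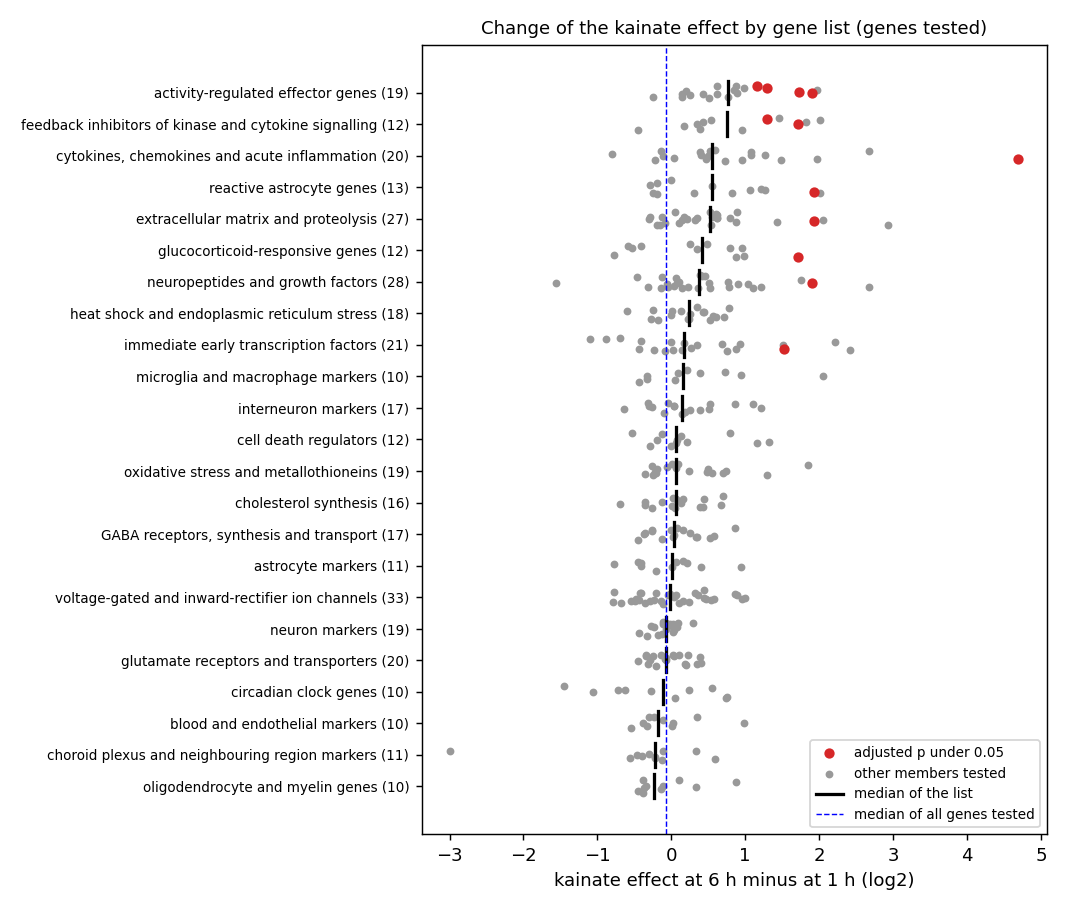
Change of the kainate effect, 6 h minus 1 h, in log2 for each tested member of 23 gene lists, with the number tested in brackets. Red points passed the adjusted test, black bars are list medians and the dashed line is the median of all genes, -0.08. Medians run from 0.76 for activity-regulated effector genes to -0.24 for oligodendrocyte and myelin genes.

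The markers of cell types with an annotated probe set had no called change, beside 0.435% of all genes with one. Gfap is not among them, and the 8 called probe sets without a gene could not be assigned to a list. The 0 calls in the astrocyte list therefore cover only its 11 tested members. Neuron, astrocyte, oligodendrocyte, microglia and endothelial lists had 0 called changes, with median changes of -0.07, 0.01, -0.24, 0.15 and, for blood and endothelium, -0.18 log2. At an unadjusted p under 0.05 the change was positive in 0 of 19, 2 of 11, 1 of 10, 3 of 10 and 1 of 10 of their members and negative in 0, beside 4.79% positive and 4.88% negative over all genes. Of 17 interneuron markers 0 had a called change, 5 had a positive change at that level and 3 were called higher at 6 h, with a median change of 0.14 log2. The neuronal markers of hippocampus were detected, except that Slc17a7 was at or under the floor in the mean of every group. The microglial complement gene C1qb was called higher at 6 h, with effects of 0.25 log2 at 1 h and 1.19 log2 at 6 h. Ttr, which marks choroid plexus, averaged 1846 in kainate and 719 in PBS at 1 h, and 1114 in kainate and 2603 in PBS at 6 h, a change of -2.99 log2 that was not called (limma adjusted p = 0.510). Its part in the other results was not tested. In bulk tissue, more or fewer cells of a type and more or less RNA per cell cannot be told apart.

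Of 9 measures of array quality, 1 had an unadjusted p under 0.05 for the same contrast. The log2 ratio of 3′ to 5′ beta-actin signal averaged 0.80 in kainate and 0.53 in PBS at 1 h, and 0.41 in kainate and 0.52 in PBS at 6 h, a change of -0.38 (exact permutation test, two-sided, p = 0.03, adjusted p = 0.27 over the 9 measures). The same ratio had a change of 0.07 for Gapdh (exact permutation p = 0.615) and of 0.01 for hexokinase (exact permutation p = 0.96). The hexokinase ratio was higher at 1 h, with 1.63 in kainate and 1.41 in PBS, than at 6 h, with 1.02 in kainate and 0.80 in PBS. Their part in the called changes was not tested. Correlations of log2 signal between arrays of 1 group ran from 0.924 to 0.978. Kainate replicate 3 of 1 h had a median correlation of 0.933 with its own group and 0.934 with arrays of other groups. For PBS replicate 3 of 1 h both medians were 0.931. On all other arrays the median was higher with the own group.

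The 24 h arrays played no part in the sorting. Of the 10 delayed genes 5 were called higher in kainate at 24 h, as were 2 of the 4 growing and 0 of the 15 sustained genes, beside 4.99% of all genes. Of the 15 sustained genes 4 were called lower, beside 7.84% of all genes. The difference between these shares was not tested. The median 24 h effect was 0.71 log2 in the delayed, 0.48 in the growing and -0.10 in the sustained genes, beside -0.07 over all genes. Ccl2 was 2.84-fold and Cd44 3.50-fold higher in kainate at 24 h, with limma adjusted p of 0.0234 and 5.89e-05. Pdlim4, at 5.15-fold, Pdpn, at 2.20-fold, and F3, at 1.86-fold, were also called higher at 24 h. Bdnf was still 1.81-fold and Nptx2 2.49-fold higher at 24 h, both called, while Errfi1 and Cebpb were not called. Arc, Egr1, Nr4a1 and Nr4a3 were called lower in kainate at 24 h, with log2 effects of -0.70, -0.64, -0.92 and -1.10.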

How the data were processed

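The authors deposited linear intensity values, 1 for each probe set on each array. The image software is not given here. In the deposited values, trimmed means (2% left out at each end) lay between 150.149 and 150.193 on the 12 arrays, so arrays had been brought to a common level. Precision is limited by the number of arrays.

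Signals were scaled to the common trimmed mean, floored at the 20th percentile (10.95, log2 3.45) and turned into log2, leaving out 59 array controls. Probe sets above 35 on at least 3 of 12 arrays were fitted with limma 3.58.1 in R 4.3.3 (1 mean per group, variance trend, 8 residual and 7.06 prior degrees of freedom), and p-values were adjusted by Benjamini-Hochberg over 5796 probe sets. The 24 h effect came from a fit of all 30 arrays. Tables and figures used Python 3.11.15, pandas 2.3.3, SciPy 1.17.1 and matplotlib 3.10.9. The scripts were tested on simulated data.

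Gene names came from the platform annotation: of 8740 probe sets, 7006 had 1 gene, 308 several and 1426 none, and 6985 matched a current gene identifier. Promoters came from RefSeq, GRCr8.

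The comparison, lists and rules were chosen with earlier results of these data known. Named genes were the 12 with the largest called positive and negative changes (where under 4 were called, the 4 with the smallest p), the 10 sustained genes with the largest smaller effect, up to 3 called members of each list, and Fos, Egr1, Arc, Bdnf and Ccl2. Replicate numbers were checked for pairing. Over 18 same-numbered pairs the deviations from group means correlated by -0.116 to 0.235. The 6 pairs above 0.1 all had replicate number 2 or 3. Whether arrays of 1 number shared handling is not settled by these values, and the main fit has no block. Alternatives covered the normalization, floor, filter, model, arrays used and each array left out.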

Additional observations from a re-analysis of the deposited data

Results flagged for a closer look

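The kainate effect at 6 h differed from that at 1 h, by the test of the difference itself (limma, adjusted over all probe sets), in 15 genes. The difference, 6 h minus 1 h in log2, was 4.69 in Ccl2, 3.45 in Pdlim4, 2.59 in Ifitm10, 2.58 in F3, 1.93 in Cd44 and 1.91 in Bdnf. It was 1.73 in Slc5a3, 1.72 in Nptx2, 1.72 in Pdpn, 1.72 in Errfi1, 1.52 in Cebpb, 1.29 in Rgs4, 1.16 in Syt4 and 0.86 in Ptp4a2. It was negative, -1.42, in Rnf112 alone among them.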

How the results depend on the processing

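The 41 probe sets called for the change became 80 (66 higher, 14 lower) with the floor at signal 35 and 67 (56 higher, 11 lower) in a fit of all 30 arrays. The share of higher calls was 92.7% as reported and 82.5% with that floor. Among the other settings the count ran from 33 to 59. Without the filter on low values it was 36, of which 22 were among the 41, and array weights gave 59, which held all 41. The number called at 6 h was 191 and became 502 with array weights. Delayed genes numbered 10 as reported, 17 with log2(signal + 16), 25 with the floor at 35, 25 with all 30 arrays and 18 with array weights. Growing genes were 4, and 2 without the filter. Early genes were 0, and 1 after quantile normalization. Leaving out each array in turn gave 14 to 59 probe sets for the change, 39 to 73 at 1 h and 115 to 205 at 6 h. It gave 2 to 12 delayed, 2 to 4 growing, 9 to 17 sustained and 0 to 2 early genes, 12 to 23 genes higher at 1 h and 12 to 21 higher at both times.

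With the replicate number as a block the change was called for 49 probe sets (44 higher, 5 lower), 40 of them among the 41. The numbers are not known to pair samples.

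The change of Dusp1, 0.35 as reported, was -0.017 with array weights and ran from -0.21 to 1.02 over the fits that left out 1 array. That of Junb, 0.15 as reported, was -0.27 with array weights, -0.18 as the mean of all its probe sets, and ran from -0.53 to 0.54 over those fits. It was -0.01 without kainate replicate 3 of 6 h and -0.0005 without PBS replicate 2 of 1 h. The causes were not tested. Without the filter 7 named calls were lost, among them Pdlim4 (adjusted p = 0.128). Values near the floor, as for Ccn1 and Ccl3, give bounds only.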

Other observations

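Of the 41 probe sets called for the change, 8 had no single gene in the annotation. M60921_at was called higher in kainate at 1 h and not at 6 h. Its signal was 446, 574 and 479.6 in kainate at 1 h, against 191, 249 and 221 in PBS at 1 h, and 395, 275 and 311 in kainate at 6 h, against 309, 406 and 407 in PBS at 6 h. Its change was -1.38 log2 (limma adjusted p = 0.0179). The probe set rc_AI230256_at was called lower at 1 h, with an effect of -0.95 log2, and was not called at 6 h, with 0.56 log2. The change of rc_AI230256_at was 1.51 log2 (limma adjusted p = 0.0165). AF028784mRNA#2_at had 9.39, 18.6 and 17.9 in kainate at 1 h, against 18.7, 22.7 and 25.2 in PBS at 1 h, and 115, 116 and 102 in kainate at 6 h, against 17.6, 14.3 and 13.8 in PBS at 6 h. Its change was 3.39 log2 (limma adjusted p = 0.00364), and it passed the signal filter only on the kainate 6 h arrays. The other 2 probe sets of the same accession were also delayed, with changes of 1.55 and 0.80 log2 (limma adjusted p of 0.0212 and 0.0320). The accession is named by no table used here.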
